A study of Mus musculus with 6 samples.

Results

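The genes described here encode glycoproteins that fibroblasts secrete into the extracellular matrix: the thrombospondins Thbs1, Thbs2 and Thbs3, tenascin C (Tnc), nidogen 2 (Nid2), fibronectin (Fn1), periostin (Postn), Sparc, osteopontin (Spp1) and matrix Gla protein (Mgp). They were chosen by name, as every probe set annotated to 1 of these 10 genes and to no other gene. Of the 10 genes, 9 had such a probe set, 16 probe sets in all, out of 18193 genes and 45101 probe sets in the whole table. Spp1 had none in the annotation used here and was not analysed, and 1 further probe set annotated to both Thbs1 and Pald1 was not counted for either gene. RNA came from NIH3T3, an established mouse fibroblast line, with mutant LPAR1 or with wild-type LPAR1, a receptor for lysophosphatidic acid. Each genotype had 1 Affymetrix array at each of 3 times (0, 60 and 120 minutes), which makes 6 arrays in all. The labels do not name the mutation, the treatment that the times count from, or how many cultures or clones were used, so errors and p-values measure the spread between these arrays, which may be technical.

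Matrix glycoproteins do more than fill space between cells. Thrombospondins, tenascin C, osteopontin, Sparc and periostin are called matricellular, because they act mainly by binding receptors, growth factors and other matrix proteins, while fibronectin builds the fibrils that integrins hold and nidogens link laminin to collagen IV in basement membranes. In fibroblasts, Thbs1, Tnc and Fn1 are known to respond to serum, growth factors and tension, and Lpar1 signals through G proteins.

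Promoter sequences from RefSeq (GRCm38.p6), each from 250 bases before to 50 bases after a gene's start, were matched by gene ID for 6 of the 10 genes. Those of 3 genes are shown, because their transcripts behaved differently: Tnc changed with both time and genotype, Sparc with genotype, and Thbs2 with neither at the probe set used. They are written 5′ to 3′ on the strand of the gene, and capitals mark a match to 1 of the motifs searched.
Tnc, chr4:64046966-64047265, minus strand: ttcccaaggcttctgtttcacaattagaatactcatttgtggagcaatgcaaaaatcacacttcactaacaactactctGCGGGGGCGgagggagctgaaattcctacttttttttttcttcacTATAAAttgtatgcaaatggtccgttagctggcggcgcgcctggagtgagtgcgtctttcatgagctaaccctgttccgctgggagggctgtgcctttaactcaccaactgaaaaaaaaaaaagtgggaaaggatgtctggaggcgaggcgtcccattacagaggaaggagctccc
Thbs2, chr17:14694213-14694512, minus strand: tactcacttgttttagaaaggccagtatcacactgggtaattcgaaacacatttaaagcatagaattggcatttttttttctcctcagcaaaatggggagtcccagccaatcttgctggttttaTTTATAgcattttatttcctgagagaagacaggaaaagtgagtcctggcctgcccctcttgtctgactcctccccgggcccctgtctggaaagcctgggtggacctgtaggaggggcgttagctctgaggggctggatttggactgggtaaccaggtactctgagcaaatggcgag
Sparc, chr11:55420031-55420330, minus strand: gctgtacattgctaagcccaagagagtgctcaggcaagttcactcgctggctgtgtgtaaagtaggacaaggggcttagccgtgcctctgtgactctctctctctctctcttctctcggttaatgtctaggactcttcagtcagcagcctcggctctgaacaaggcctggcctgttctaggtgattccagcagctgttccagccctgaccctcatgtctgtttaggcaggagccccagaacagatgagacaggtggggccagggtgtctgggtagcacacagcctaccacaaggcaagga
Both strands were searched for the AP-1 site TGANTCA, the EGR site GCGNGGGCG, the TEAD site GGAATG, the TATA box TATAAA and, by name, the CArG box that binds serum response factor. The Tnc window held an EGR match (bases 80 to 88) and a TATAAA match (bases 125 to 130), and the second Tnc window, which overlaps it, held the same 2 matches. The Thbs2 window held TATAAA on the opposite strand, at bases 125 to 130, and the Sparc window held none of these letters. Relative to the gene's start, TATAAA lay at -126 in the Tnc window shown, -205 in the second Tnc window and -126 in Thbs2. Among the windows not shown, TATAAA lay at -26 in a Postn window and at -211 in a Spp1 window. A match of letters does not show that the stretch works as a TATA box. Among all 32851 windows of this length, 5.55% held the EGR letters, 13.6% TATAAA, 14.7% GGAATG, 7.81% the AP-1 letters and 1.63% a CArG box. No window of the 6 genes (Tnc, Thbs2, Thbs3, Sparc, Postn and Spp1) held the CArG box, the AP-1 or the TEAD letters, and matches overlapped no other motif. Thbs1, Nid2, Fn1 and Mgp had no window and were not searched, so nothing is known here of these motifs in their promoters.

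Values are probe-set intensities, used as log2(intensity + 16). Each gene was represented by its brightest probe set, genes with a mean level under an intensity of 39.2 (the 40th percentile) were left out, and 10916 genes were tested with limma in an additive fit of genotype and time. The threshold was an adjusted p of 0.05. Of the 9 genes, 8 were tested, and Postn lay below the level. Array medians lay between 34.1 and 37.3, and arrays of the 2 genotypes at the same time correlated across genes at Pearson's r from 0.989 to 0.990. Lpar1 itself had intensities of 1496, 1514 and 1438 in mutant cells at 0, 60 and 120 minutes, against 1335, 1290 and 1289 in wild-type cells (log2 difference 0.18 ± 0.045, SE; limma adjusted p = 0.0207), a call that was lost without either 0 minute array (adjusted p of 0.0559 without the mutant and 0.0555 without the wild-type array) or either 60 minute array (0.103 and 0.102), without the trend in shrinkage (0.0771) and without time as a block (0.321). The labels do not say how the mutant form came to be in the cells or whether this probe set reads it. Of 11 fibroblast markers 10 were above the level, among them Col1a1, Pdgfrb and Vim, and the exception was Lum. Above it were 1 of 5 endothelial, 2 of 5 epithelial, 2 of 5 macrophage and blood, 1 of 5 cartilage and 3 of 5 smooth muscle markers, and 1 of the 3 osteoblast markers that had a probe set. The arrays' precision is limited by their number.

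**Figure D1:**
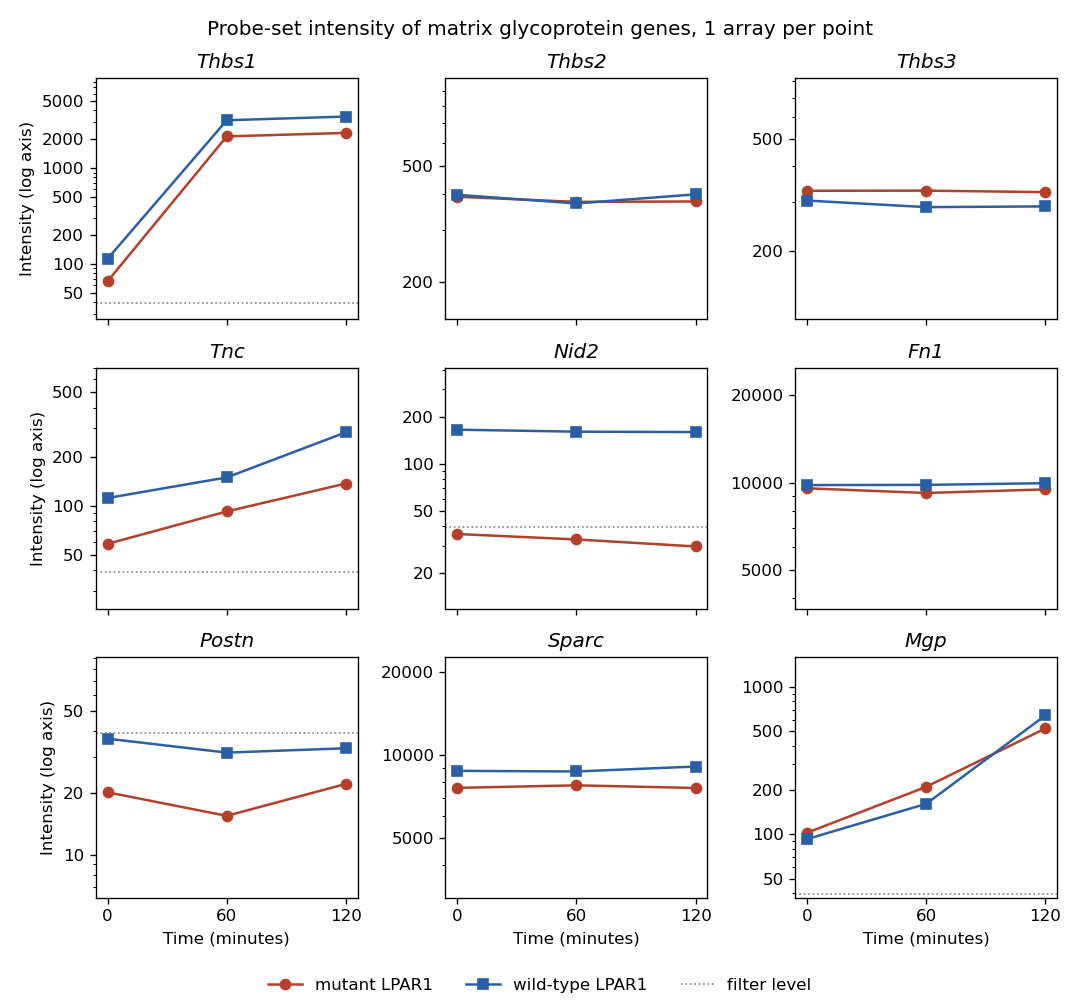
Intensity of the probe set used for each of 9 genes (log axis, differing between panels) against time in minutes, with 1 array per point, mutant LPAR1 as red circles and wild-type LPAR1 as blue squares. The dotted line is the filter level of 39.2, drawn where it falls within the panel. Thbs1, Tnc and Mgp climb with time in both genotypes, and the mutant points of Nid2 stay under the dotted line.

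Thbs1, Tnc and Mgp rose with time in both genotypes, while the other 5 tested genes did not pass in any time comparison at the probe sets used. A second Fn1 probe set, given below, fell at 120 minutes. At 60 against 0 minutes, 3 of 8 tested genes rose and 0 fell, where 7.34% of all genes tested rose and 10.7% fell (18% in either direction). At 120 against 0 minutes the same 3 rose and 0 fell, where 16.2% of all genes rose and 30.8% fell (47% in either direction). At 120 against 60 minutes, 2 of the 8 rose, Tnc and Mgp, and 0 fell, where 10.2% of all genes rose and 15% fell (25.2% in either direction). By limma's unadjusted p under 0.05, 0 members fell in each of the 3 comparisons at the probe sets used. All shares over all genes given here are at the adjusted threshold, and none was taken at the unadjusted one. The median log2 change over the 8 genes was -0.0068 at 60 and 0.015 at 120 minutes, beside -0.071 and -0.091 over all genes tested. The comparisons with 0 minutes share the 0 minute arrays.

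Thbs1 encodes thrombospondin 1, a trimeric protein that binds CD47, CD36 and integrins and can activate latent TGF-beta. It had intensities of 66.3, 2145 and 2333 in mutant cells at 0, 60 and 120 minutes, and of 114, 3161 and 3455 in wild-type cells. Every later array was thus far above both 0 minute arrays, and the 60 and 120 minute arrays of a genotype lay close together. The fitted change was log2 4.67 ± 0.061 at 60 minutes (SE, n = 2 arrays per time; limma adjusted p = 5.49e-11), or 25.4-fold on the offset scale. It was log2 4.79 ± 0.061 at 120 minutes (adjusted p = 5.31e-11), or 27.6-fold. Among 10916 genes this placed Thbs1 at rank 4 of the rises at 60 minutes and at rank 1 at 120 minutes. From 60 to 120 minutes the further difference was 0.12 ± 0.061 and did not pass (adjusted p = 0.18). Taken on the intensities without an offset, the ratio of 60 to 0 minutes was 32.4 in mutant and 27.8 in wild-type cells. A second Thbs1 probe set gave 19.3, 539 and 518 in mutant cells and 35.8, 730 and 925 in wild-type cells. Both of its 0 minute values were below the filter level. Its fitted changes were 3.91 ± 0.10 at 60 and 4.05 ± 0.10 at 120 minutes when every probe set was fitted.

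Thbs2 and Thbs3 encode the other thrombospondins among the genes listed at the start, and share the C-terminal part of thrombospondin 1. Both stood apart from Thbs1 in time. Thbs2 had intensities of 391, 375 and 377 in mutant cells at 0, 60 and 120 minutes, against 397, 371 and 398 in wild-type cells. Thbs3 had 328, 328 and 324 in mutant cells, against 302, 287 and 288 in wild-type cells. No 2 arrays of either gene were far apart. The change at 120 minutes was -0.023 ± 0.070 for Thbs2 and -0.040 ± 0.072 for Thbs3 (SE; limma adjusted p of 0.816 and 0.681).

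Tnc encodes tenascin C, a hexameric glycoprotein that weakens the hold of cells on fibronectin and is known from wounds and tumour stroma. Its intensity was 58.2, 92.1 and 137 in mutant cells at 0, 60 and 120 minutes, and 111, 149 and 282 in wild-type cells. Both genotypes had their lowest value at 0 and their highest at 120 minutes. The rise was 0.46 ± 0.11 at 60 minutes (SE; limma adjusted p = 0.0144) and 1.13 ± 0.11 at 120 minutes (adjusted p = 1.82e-05) and 0.68 ± 0.11 from 60 to 120 minutes (adjusted p = 0.0011). The call at 60 minutes was lost without the mutant 60 minute array (0.33, adjusted p = 0.144) or the wild-type 0 minute array (0.45, adjusted p = 0.0618). A second Tnc probe set was dim, with 0.29, 20.2 and 7.53 in mutant cells and 5.20, 31.8 and 40.7 in wild-type cells, so that 1 of its 6 values exceeded the filter level. With the mean of both sets, the change from 60 to 120 minutes was 0.24 and did not pass (adjusted p = 0.274).

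Mgp encodes matrix Gla protein, a small vitamin K-dependent protein that inhibits calcification of cartilage and artery. Its intensity was 103, 210 and 522 in mutant cells at 0, 60 and 120 minutes, and 92.9, 161 and 640 in wild-type cells. The rise was larger in the second hour than in the first in both genotypes. It came to 0.82 ± 0.13 at 60 minutes (SE; limma adjusted p = 0.00176), 2.39 ± 0.13 at 120 minutes (adjusted p = 4.83e-07), or 5.23-fold, and 1.57 ± 0.13 from 60 to 120 minutes (adjusted p = 1.96e-05). The last placed Mgp at rank 15 of the rises among 10916 genes. Mgp had 1 probe set, so no second set could be compared.

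Fn1, Sparc and Nid2 did not pass in any time comparison at the probe sets used. Fn1 encodes fibronectin, and had intensities of 9573, 9227 and 9491 in mutant cells at 0, 60 and 120 minutes, against 9822, 9838 and 9969 in wild-type cells. Sparc encodes a collagen-binding protein also called osteonectin, and had 7600, 7764 and 7591 in mutant cells, against 8759, 8715 and 9081 in wild-type cells. The change at 120 minutes was 0.0046 ± 0.041 for Fn1, 0.025 ± 0.044 for Sparc and -0.11 ± 0.10 for Nid2 (SE; limma adjusted p of 0.942, 0.671 and 0.414). A second Fn1 probe set behaved otherwise. It had 1507, 1945 and 1116 in mutant cells at 0, 60 and 120 minutes, and 1716, 1887 and 1137 in wild-type cells, with the lowest value of each genotype at 120 minutes. With every probe set fitted, it fell by 0.51 ± 0.068 on the log2 scale at 120 against 0 minutes (limma adjusted p = 0.000371) and by 0.76 ± 0.068 at 120 against 60 minutes (adjusted p = 8.69e-05). At 120 against 0 minutes 24.9% of 18911 probe sets fell and 16.4% rose, and at 120 against 60 minutes 11.4% fell and 9.19% rose. It rose by 0.25 ± 0.068 at 60 minutes (adjusted p = 0.0369), where 7.32% of probe sets rose and 8.05% fell. That call was lost without the mutant 0 or 60 minute array (adjusted p of 0.341 and 0.253) and without the trend in shrinkage (0.11). The sets of Fn1 therefore disagree in time, and the files do not say which part of the transcript each one reads.

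The Actb control sets offer a measure of RNA quality, as the signal near the 5′ end over that near the 3′ end, and this ratio moved with time too. It was 0.505, 0.683 and 0.661 in mutant cells at 0, 60 and 120 minutes, and 0.579, 0.650 and 0.699 in wild-type cells, and its part in these changes was not tested. Mgp is also a gene of cartilage and smooth muscle. The summed intensity of 5 cartilage markers was 1206, 1560 and 2303 in mutant cells and 1308, 1857 and 2857 in wild-type cells, nearly all of it from Sox9, with Acan, Col2a1, Col9a1 and Matn1 below the filter level. The summed intensity of 5 smooth muscle markers was 815, 7383 and 7773 in mutant cells and 884, 7891 and 8555 in wild-type cells, nearly all from Acta2 and Tagln. Of the other smooth muscle markers, Myh11 was just above the level, at 31.8 to 44.6 in mutant and 40.5 to 48.7 in wild-type cells, and Cnn1 and Des were below it. The part of these markers in the rise of Mgp was not tested.

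**Figure D2:**
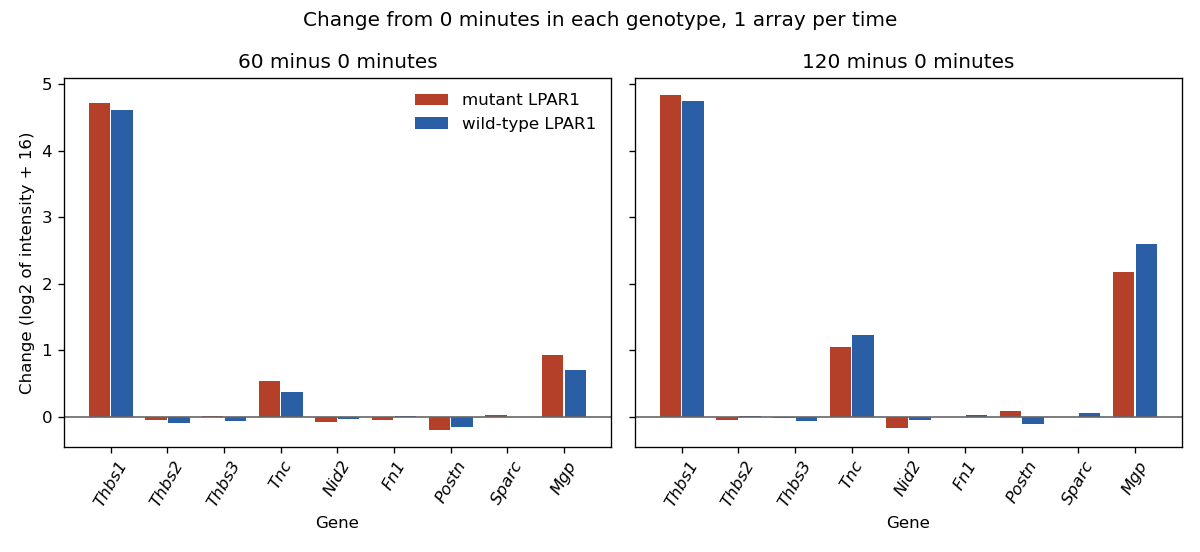
Change in log2(intensity + 16) at 60 minutes (left) and 120 minutes (right) from 0 minutes for each gene, drawn as bars from 1 array per time, mutant LPAR1 in red and wild-type LPAR1 in blue. Thbs1 stands at log2 4.61 to 4.84 in both genotypes and at both times, Mgp and Tnc are higher at 120 than at 60 minutes, and the other genes lie near 0.

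How far the 2 genotypes differed in this time course could not be tested, since each has 1 array per time, and the values are a description. The Thbs1 rise at 120 minutes was log2 4.84 in mutant and 4.74 in wild-type cells, a difference of 0.093, while the second Thbs1 set gave 3.92 and 4.18, a difference of -0.27. The Tnc rise was 1.04 in mutant and 1.23 in wild-type cells, a difference of -0.19. The Mgp rise was 2.18 in mutant and 2.59 in wild-type cells, a difference of -0.41, while at 60 minutes it was 0.93 in mutant and 0.70 in wild-type cells. Over all genes tested the median absolute difference between the genotypes' changes at 120 minutes was 0.11, and the 95th percentile was 0.40. Mgp lay just past that percentile at 120 minutes, and the 2 Thbs1 sets differed in sign. Mgp was higher in the mutant array at 0 and 60 minutes (log2 0.12 and 0.35) and lower at 120 minutes (-0.29).

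Between genotypes, Nid2, Tnc, Thbs1 and Sparc were lower in mutant cells, and none of the tested genes passed as higher. Of the 8 genes 4 were lower, where 8.92% of all genes tested were lower, and 0 were higher, where 10.4% were higher (19.3% in either direction). By limma's unadjusted p under 0.05, 1 was higher, Thbs3. The median log2 difference was -0.14 over the 8 genes and 0.015 over all genes tested. With the number of cultures and clones not given, the mutation and any other difference between the cells cannot be told apart.

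Nid2 encodes nidogen 2, which bridges laminin and collagen IV. Its intensity was 35.5, 32.8 and 29.6 in mutant cells at 0, 60 and 120 minutes, against 166, 161 and 160 in wild-type cells. The ranges of the genotypes did not overlap, and all 3 mutant values were below the filter level of 39.2. How many of all genes tested had ranges without overlap was not counted. The log2 difference was -1.88 ± 0.085 (SE, n = 3 arrays per genotype; limma adjusted p = 8.65e-07). Nid2 passed the filter through the wild-type arrays, where it was high, so its place in the count above rests on them, and 3 of the other 7 genes were lower. Under the alternatives that tested it, no filter included, its adjusted p was at most 0.000782. Because the mutant arrays were dim, its size depended on the offset, with -2.28 at an offset of 1 and -1.23 at 64. At single times it was -1.82, -1.86 and -1.95.

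Tnc differed by -0.79 ± 0.086 (SE; limma adjusted p = 0.000273), with -0.78, -0.61 and -0.97 at 0, 60 and 120 minutes. In intensity, the mutant array held 0.523, 0.618 and 0.484 of the wild-type value at those times. Thbs1 differed by -0.59 ± 0.050 (adjusted p = 5.47e-05), with -0.66, -0.56 and -0.56 at the 3 times, and its second probe set by -0.60 ± 0.085 (adjusted p = 0.0026). The lower level of Thbs1 in mutant cells was present at 0 minutes, before its rise. Since both genes move with time, their calls rest on time point as the block that pairs the arrays: without it the adjusted p was 0.573 for Tnc and 0.994 for Thbs1.

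Sparc was lower in mutant cells by a smaller step, and its ranges did not overlap between genotypes (7591 to 7764 in mutant and 8715 to 9081 in wild-type cells). The log2 difference was -0.21 ± 0.036 (SE; limma adjusted p = 0.00357), a call that was lost without the trend in shrinkage (adjusted p = 0.0546). A second Sparc probe set had 4271, 4323 and 4345 in mutant cells at 0, 60 and 120 minutes, against 5994, 5544 and 5770 in wild-type cells. Its difference was -0.42 ± 0.041 (adjusted p = 0.000392 with every probe set fitted, where 7.13% of 18911 probe sets were lower). The remaining Sparc set, below the filter level, differed by 0.054.

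Thbs2, Thbs3, Fn1 and Mgp did not pass between genotypes. The differences were -0.027 ± 0.057 for Thbs2, 0.15 ± 0.059 for Thbs3, -0.067 ± 0.034 for Fn1 and 0.063 ± 0.10 for Mgp (SE; limma adjusted p of 0.783, 0.102, 0.2 and 0.724). Thbs3, a pentameric thrombospondin, was higher in the mutant array at all 3 times. The probe sets of Thbs2 disagreed. A second set had 282, 286 and 259 in mutant cells at 0, 60 and 120 minutes, against 228, 234 and 217 in wild-type cells. It was higher by 0.27 ± 0.065 (adjusted p = 0.0289 with every probe set fitted, where 6.44% of probe sets were higher), a call that was lost with any 1 array left out (adjusted p from 0.0721 to 0.12). The remaining Thbs2 set had 167, 178 and 132 in mutant cells, against 112, 129 and 135 in wild-type cells, and differed by 0.30 ± 0.11 (adjusted p = 0.0984).

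Postn, which encodes the matricellular protein periostin, was not tested because of its low level. Its intensity was 20.1, 15.5 and 22.1 in mutant cells at 0, 60 and 120 minutes, against 36.7, 31.4 and 32.9 in wild-type cells, and the genotypes did not overlap. Without the filter the Postn difference was -0.50 (limma adjusted p = 0.0147), and the share of all genes called in that fit is not given here.

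Beside these genotype differences, the summed intensity of 5 endothelial markers was 120 to 131 in mutant and 75.8 to 88.9 in wild-type cells. Of them Cdh5 alone had a mean above the filter level, at 61.4 to 64.6 in mutant and 22.4 to 27.4 in wild-type cells. Its wild-type values were below the level, so it passed the filter through the mutant arrays, where it was high. Pecam1, Kdr, Tek and Emcn had means below it. The summed intensity of 11 fibroblast markers was 51226 to 52058 in mutant and 51270 to 52799 in wild-type cells. Within that sum single markers differed in both directions. Col1a1 was 2334 to 2411 in mutant and 3059 to 3520 in wild-type cells. Col3a1 was 9361 to 9500 in mutant and 8111 to 8531 in wild-type cells. The part of the endothelial or fibroblast markers in the result was not tested.

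**Figure D3:**
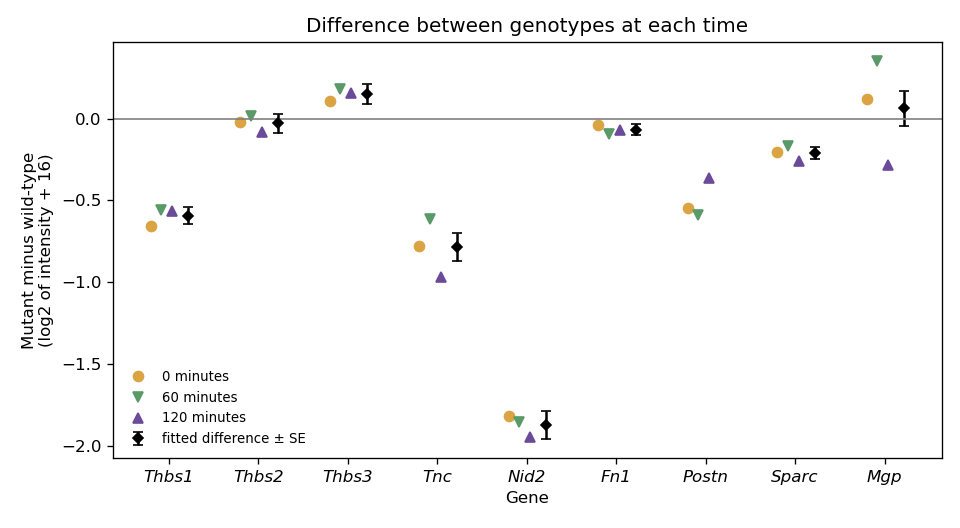
Mutant minus wild-type difference in log2(intensity + 16) for each gene at 0, 60 and 120 minutes (1 pair of arrays per point), with the fitted difference and its SE in black for the 8 tested genes. Nid2 lies between -1.95 and -1.82, and Tnc, Thbs1, Sparc, Fn1 and Postn also lie below 0 at all 3 times. Thbs3 lies above 0 at all 3 times, Mgp changes sign between 60 and 120 minutes, and Thbs2 changes sign close to 0.

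**Figure D4:**
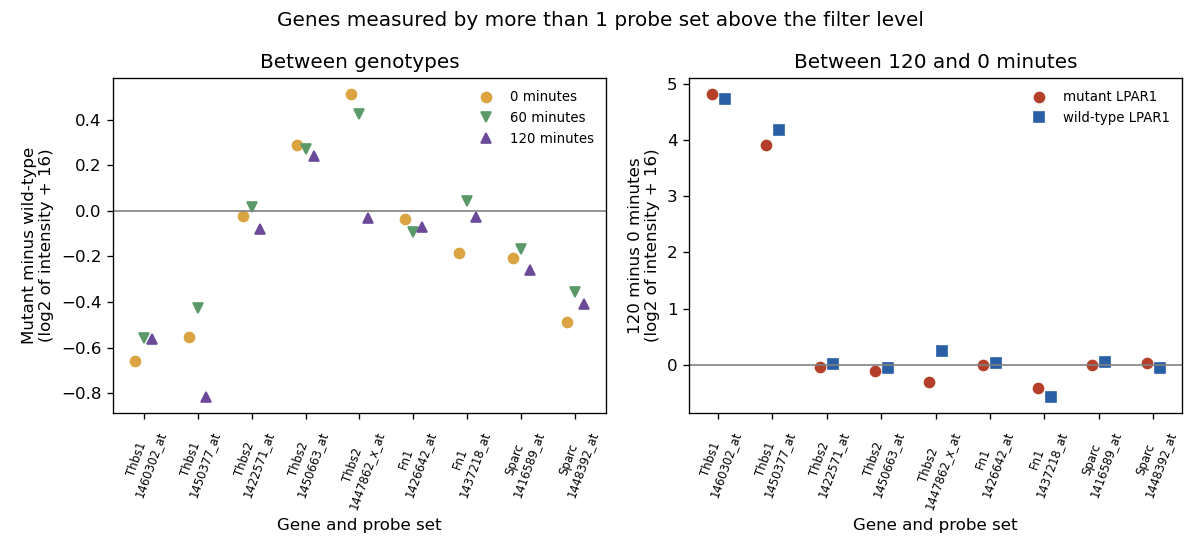
Differences in log2(intensity + 16) for each probe set above the filter level of the genes that have more than 1 such set. The left panel shows mutant minus wild-type at 0, 60 and 120 minutes, and the right panel 120 minus 0 minutes in mutant (red) and wild-type (blue) cells. The sets of Thbs1 move the same way in both panels, those of Thbs2 differ between genotypes by -0.027, 0.27 and 0.30, and the second Fn1 set lies below the first in time, at -0.43 in mutant and -0.59 in wild-type cells.

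Among 19 relatives of these genes and other matrix glycoproteins, all annotated, 7 were tested. Between genotypes 3 were lower and 2 higher, where 8.92% of all genes were lower and 10.4% higher, with a median of -0.18 beside 0.015 over all genes. The other nidogen, Nid1, was lower like Nid2, with 1142, 1024 and 1086 in mutant cells at 0, 60 and 120 minutes, against 1565, 1520 and 1692 in wild-type cells (log2 -0.55 ± 0.050, SE; limma adjusted p = 9.66e-05). Its second bright probe set gave -0.65. Tenascin R, Tnr, was lower like Tnc, with 77.7, 86.0 and 71.9 in mutant cells, against 152, 167 and 169 in wild-type cells (-0.92 ± 0.082, adjusted p = 7.87e-05). Sparcl1, a relative of Sparc, went the other way, with 131, 119 and 117 in mutant cells against 80.0, 76.9 and 75.2 in wild-type cells (0.57 ± 0.079, adjusted p = 0.00116). The genotype call of Sparcl1 was lost without time as the block (adjusted p = 0.0589). None of the 7 passed in a time comparison by limma, and by its unadjusted p under 0.05, 1 was lower at 60 and 1 at 120 against 0 minutes and 0 at 120 against 60 minutes.

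Of 18 elastic fibre and fibulin genes 12 were tested, of which 5 were lower and 1 higher in mutant cells, where 8.92% of all genes were lower and 10.4% higher (median -0.15 beside 0.015). Ltbp2, which belongs to the latent TGF-beta binding proteins, was lower by -0.67 ± 0.078 on the log2 scale (SE; limma adjusted p = 0.000414), and the microfibril gene Mfap5 was higher by 0.44 ± 0.069 (adjusted p = 0.00242). Emilin2 was lower by -0.38 ± 0.044 (adjusted p = 0.000376). At 60 minutes 1 of the 12 rose and 1 fell, where 7.34% of all genes rose and 10.7% fell. These were Fbln1 (0.43 ± 0.12, adjusted p = 0.0311) and Emilin2 (-0.21 ± 0.054, adjusted p = 0.0244), and each call was lost without any 1 of the arrays of 0 or 60 minutes (adjusted p from 0.0769 to 0.27). With the mean of its probe sets Fbln1 changed by 0.064 and did not pass (adjusted p = 0.63). Another Fbln1 set changed by -0.22 in mutant and -0.40 in wild-type cells, and the remaining set by 0.14 and 0.0028. The wild-type 0 minute value of the set used, 35.7, was below the filter level. The Emilin2 call was also lost with equal medians (0.171) and without the trend in shrinkage (0.0837). At 120 minutes 2 rose and 3 fell, where 16.2% of all genes rose and 30.8% fell. Emilin1 (-0.28 ± 0.070, adjusted p = 0.0077) lost its call without the wild-type 0 or 120 minute array (0.0584 and 0.0633) and Fbln5 (-0.19 ± 0.053, adjusted p = 0.0131) without either 0 minute array or the mutant 120 minute array (0.0524 to 0.109). The Emilin1 call was also lost with the mean of its probe sets (-0.18, adjusted p = 0.129). That of Fbln5 was also lost with equal medians (0.0649) and without the trend in shrinkage (0.0608). Ltbp1, which holds latent TGF-beta in the matrix, rose by 0.86 ± 0.094 at 120 minutes (adjusted p = 5.58e-05), with 210, 220 and 354 in mutant cells and 231, 234 and 480 in wild-type cells. From 60 to 120 minutes 3 rose and 0 fell, where 10.2% of all genes rose and 15% fell, with limma's unadjusted p under 0.05 also giving 0 lower, among them Ltbp1 by 0.82 ± 0.094 (adjusted p = 0.000176) and Ltbp2 by 0.55 ± 0.096 (adjusted p = 0.00223). The last, Ltbp3 (0.27 ± 0.063, adjusted p = 0.0116), lost its call without the wild-type 60 or 120 minute array (log2 0.24 and 0.18). The call was also lost without the trend in shrinkage (adjusted p = 0.0523), and the change was -0.044 with the mean of its probe sets.

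Of 20 receptors and cell surface partners, such as integrins that bind fibronectin, osteopontin and tenascin C, 16 were tested. Between genotypes 6 were lower and 0 higher, where 8.92% of all genes were lower and 10.4% higher (median -0.12 beside 0.015), and limma's unadjusted p under 0.05 gave 2 higher. Itgb3, a chain of the receptor for vitronectin and osteopontin, was lower by -0.50 ± 0.13 on the log2 scale (SE; limma adjusted p = 0.0249), a call that was lost without either 120 minute array (0.0775 without the mutant and 0.0866 without the wild-type array). The Itgb3 call was also lost with the mean of its probe sets (-0.31, adjusted p = 0.0634) and without the trend in shrinkage (0.0598). The fibronectin receptor chain Itgb1 was lower by -0.42 ± 0.047 on the log2 scale (SE, limma adjusted p = 0.000328) and Itgb5 by -0.36 ± 0.047 (adjusted p = 0.00087). At 60 minutes 3 rose and 1 fell, where 7.34% of all genes rose and 10.7% fell, and at 120 minutes 5 rose and 1 fell, where 16.2% rose and 30.8% fell. Cd44, a receptor for hyaluronan and osteopontin, rose by 1.83 ± 0.096 at 120 minutes (adjusted p = 4.23e-07), with 1388, 2900 and 4257 in mutant cells and 1104, 2305 and 4630 in wild-type cells. Sdc4, a syndecan that binds fibronectin together with integrins, rose by 1.70 ± 0.060 (adjusted p = 3.51e-08), with 449, 1182 and 1564 in mutant cells and 542, 1349 and 1717 in wild-type cells. At 60 minutes Sdc4 rose by 1.33 ± 0.060 (adjusted p = 2.29e-07), Cd44 rose by 1.05 ± 0.096 (adjusted p = 4.24e-05) and Itgb5 fell by 0.26 ± 0.058 (adjusted p = 0.0113). The Itgb5 call was lost without the mutant 60 minute (0.0985) or the wild-type 0 minute array (0.081). It was also lost with equal medians (0.0585) and without the trend in shrinkage (0.0549). Itgb3 rose by 0.86 ± 0.16 at 120 minutes (adjusted p = 0.00152). From 60 to 120 minutes 4 rose and 1 fell, where 10.2% of all genes rose and 15% fell. Of these, the syndecan Sdc1 rose by 0.89 ± 0.11 (adjusted p = 0.000306), Cd44 rose by 0.78 ± 0.096 (adjusted p = 0.000282) and the integrin chain Itgb8 fell by 0.74 ± 0.086 (adjusted p = 0.000199).

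Of 20 genes that process, inhibit or crosslink secreted matrix 16 were tested. Between genotypes 5 were lower and 2 higher, where 8.92% of all genes were lower and 10.4% higher (median -0.086 beside 0.015). Timp1, an inhibitor of matrix metalloproteinases, was lower in mutant cells by -0.51 ± 0.078 on the log2 scale (SE; limma adjusted p = 0.00195). Ggcx, the enzyme that makes the Gla residues of Mgp and other vitamin K-dependent proteins, was lower by -0.47 ± 0.070 (adjusted p = 0.00179), and the protease Htra1 by -0.38 ± 0.066 (adjusted p = 0.00398). At 60 minutes 4 rose and 0 fell, where 7.34% of all genes rose and 10.7% fell. By limma's unadjusted p under 0.05, 4 were lower, a threshold at which no share over all genes was taken. At 120 minutes 5 of the 16 rose and 5 fell, where 16.2% of all genes rose and 30.8% fell, so the share that fell was close to that of all genes. Timp1 rose by 1.84 ± 0.096 at 120 minutes (adjusted p = 3.79e-07), with 613, 1262 and 2282 in mutant cells and 994, 1483 and 3537 in wild-type cells. Adamts1, a protease that cleaves proteoglycans and thrombospondins, fell by 1.74 ± 0.092 at 120 minutes (adjusted p = 4.24e-07), with 1025, 748 and 261 in mutant cells and 965, 934 and 313 in wild-type cells. From 60 to 120 minutes 3 rose and 4 fell, where 10.2% of all genes rose and 15% fell. Adamts1 fell by 1.5 ± 0.092 (adjusted p = 3.12e-06), Timp1 rose by 1.05 ± 0.096 (adjusted p = 3.98e-05) and the protease Adamts5 fell by 0.64 ± 0.069 (adjusted p = 0.000119). Timp1 (0.80 ± 0.096, adjusted p = 0.000288) and Timp3 (0.66 ± 0.052, adjusted p = 1.48e-05), inhibitors of metalloproteinases, rose at 60 minutes. Plau, the urokinase plasminogen activator, rose at 60 minutes by 1.99 ± 0.14 (adjusted p = 6.47e-06), a size that depended on the offset, with 3.02 at an offset of 1 and 1.04 at 64. Its intensities were 16.03, 98.3 and 54.8 in mutant cells and 6.46, 83.5 and 50.9 in wild-type cells, so both 0 minute values were below the filter level and it was tested through the later arrays, where it was high. At 120 minutes its rise was 1.36 ± 0.14 (adjusted p = 3.57e-05).

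Without time point as the block, the genotype calls named for Ltbp2 (adjusted p = 0.301), Mfap5 (0.145), Emilin2 (0.173), Itgb3 (0.708), Itgb1 (0.295), Itgb5 (0.271), Timp1 (0.922), Ggcx (0.153) and Htra1 (0.406) were lost.

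For the 4 genes with a called log2 difference of at least 1, the most similar profiles over the 6 arrays were sought as the smallest root mean square difference of centred log2 values. For Thbs1 these were Hbegf, a ligand of the EGF receptor, at 0.25 and Fosl1, an AP-1 subunit, at 0.36. For Tnc they were Mustn1 and Gse1, each at 0.19. For Nid2 they were Cmbl at 0.090 and Cyp3a13 at 0.12. For Mgp they were Hectd2 at 0.13 and Clcf1, a cytokine of the interleukin 6 family, at 0.14. The likeness covers genotype and time together and describes these 6 arrays.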

How the data were processed

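Expression was measured on 6 Affymetrix arrays of NIH3T3 cells, 3 with mutant and 3 with wild-type LPAR1, at 0, 60 and 120 minutes. The authors deposited linear-scale intensities for each probe set, and the submitters' processing notes name PLIER and, for the software, Affymetrix Power Tools 1.14.3.1. Background correction and scaling between arrays are not given in the sources used here.

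Of 45101 probe sets, 34945 were paired with 1 gene, 932 with several, 9160 with none, and 64 were controls; symbols were updated by gene ID through RefSeq (GRCm38.p6). No further scaling was applied to log2(intensity + 16), with the probe set of highest mean per gene and a filter at the 40th percentile. Tests used limma 3.58.1 in R 4.3.3 with shrinkage on a trend, were two-sided, and were adjusted by Benjamini-Hochberg over 10916 genes. The fit of genotype and time had 2 residual degrees of freedom and a prior of 7.77 from shrinkage. The residual holds any difference in time course between genotypes, and the prior is drawn from all genes tested. Replicate numbers stand for the times in the labels, so time point is the block that pairs arrays of the genotypes. Deviations from the genotype mean correlated across genes between paired arrays at r = 0.911, 0.756 and 0.871, which holds the shared time response. A second fit took all 18911 single-gene probe sets above an intensity of 39.2.

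The genes and lists were chosen with earlier results of these data known. Genes named were the 10 listed, up to 3 per list and comparison by size among those that passed, and the 2 nearest profiles. Alternatives were offsets of 1 and 64, no filter and a 60th percentile filter, quantile and median scaling, the mean of a gene's probe sets, fitting every probe set, no trend, no block, and leaving out each array. For the second probe sets the alternatives were chosen after seeing the data. The scripts were tested on simulated data.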

Additional observations from a re-analysis of the deposited data

Results flagged for a closer look

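Fn1 had changes of opposite sign in the genotypes at its main probe set, each close to the fitted SE of 0.041 or smaller. The log2 change from 0 minutes was -0.053 at 60 and -0.012 at 120 minutes in mutant cells, and 0.0024 and 0.022 in wild-type cells. The mean difference between the genotypes' changes, mutant minus wild-type, was -0.045, beside a median absolute difference over all genes tested of 0.11 at either time. At the second Fn1 probe set the difference had the other sign, with 0.23 at 60 and 0.16 at 120 minutes. The difference was tested at neither set, as there was 1 array per genotype and time.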

How the results depend on the processing

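Of the 12 called differences of these genes, 173 of 179 recomputed values kept direction and call, 6 kept the direction and lost the call, and 0 reversed. The filters, the fit without a trend, the fit without a block and the fit of every probe set leave the log2 difference unchanged, so they could not reverse it. Leaving out either array of a time gives the same difference between genotypes. The recomputed values are therefore not separate checks. The count of genes lower in mutant cells, 4, was 2 with the 60th percentile filter, which left Nid2 and Tnc untested, and 2 without time as the block that pairs the arrays (Nid2 and Sparc). The count at 120 against 60 minutes, 2, was 1 with the 60th percentile filter, which left Tnc untested. Leaving out 1 array at a time kept the genotype count at 4 and the 120 against 0 minute count at 3, and the 60 minute count was 2 or 3. Over all genes, 2112 passed between genotypes, against 89 without the block, 1397 without the trend, and 1393, 1402, 1373 and 1384 without the mutant or wild-type array of 0 minutes and of 60 minutes. At 60 minutes 1969 passed, against 1164, 1188 and 1156 without the mutant or wild-type 0 minute or the mutant 60 minute array. At 120 minutes 5130 of 10916 genes passed, against 7824 of 18911 probe sets, a larger count over more features. In shares, 16.2% of genes rose and 30.8% fell, and 16.4% of probe sets rose and 24.9% fell. The cause of the other shifts was not tested, except that fewer arrays leave fewer residual degrees of freedom and a filter fewer genes.

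Differences that had not passed changed sign in 29 of 301 recomputed values. With the mean of all probe sets, Fn1 gave 0.11 at 60 against 0, -0.25 at 120 against 0 and -0.36 at 120 against 60 minutes, and the last pair then passed (adjusted p of 0.00165 and 0.000576). That setting also gave Thbs2 0.18 between genotypes, 0.027 at 60 against 0 and -0.078 at 120 against 60 minutes, Sparc -0.073 and -0.018 at 60 and 120 against 0, and Ltbp3, which had passed, -0.044 at 120 against 60 minutes. With equal medians, values at 60 against 0 were 0.040 for Fn1, 0.0069 for Nid2 and 0.029 for Thbs3, those at 120 against 0 were 0.021 for Thbs2 and 0.0039 for Thbs3, and Sparc had -0.0074 at 120 against 60 minutes. Quantile normalization gave Nid2 0.019 at 60 against 0, Thbs2 0.026 and Thbs3 0.015 at 120 against 0, and Thbs3 0.029 at 120 against 60 minutes. Leaving out 1 array at a time gave -0.018 to 0.027 for Fn1 at 120 against 0, -0.081 to 0.24 for Mgp between genotypes, -0.11 to 0.0022 for Nid2 at 120 against 60, and -0.061 to 0.015 for Thbs2 at 120 against 0 minutes. It gave Sparc -0.021 to 0.044 at 60 against 0, -0.011 to 0.062 at 120 against 0 and -0.023 to 0.050 at 120 against 60 minutes, and Thbs3 -0.030 to 0.020 at 120 against 60 minutes. The cause was not tested. Detection calls were not used here, so dim values such as Nid2 in mutant cells, Postn and the second Tnc set have sizes that depend on the offset.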
